A study of Mus musculus with 8 samples.

Results

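The genes described here are 54 mouse genes that copy DNA in S phase, the part of the cell cycle in which the genome is duplicated. They were chosen by symbol, for their roles in origin licensing, the replicative helicase, the polymerases, nucleotide supply, the entry into S phase and the chromatin made behind the fork. All 54 were found among the 24015 gene symbols of the count tables, and all 54 had enough reads to be tested. Cells were murine embryonic fibroblasts (MEFs) from wild type C57bl/6 embryos (E12.5), used at passages 15 to 18. There were 2 RNA-seq libraries from MEFs given 100 units/mL of recombinant mouse interferon-beta (IFN-beta) for 6 h, and 2 from untreated MEFs. IFN-beta is a type I interferon, secreted by virus-infected cells to warn their neighbours. The series was built around mice with an epitope tag on histone H3.3, but the RNA-seq libraries carry the wild type label, and its chromatin samples were not analysed here. The labels do not say whether replicates were separate cultures. The p-values therefore stand for the spread between libraries alone, and part or all of it may be technical.

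Replication is prepared in G1, when the origin recognition complex, Cdc6 and Cdt1 load the ring-shaped Mcm2-7 helicase onto DNA, and geminin (Gmnn) later blocks Cdt1 so that no origin is loaded again. At the start of S phase, cyclin E and cyclin A with Cdk2, and the kinase Cdc7, switch the rings on with the help of Cdc45, the GINS complex and Mcm10. Many of these genes are transcribed through E2F factors at the G1/S border, so their RNA is abundant in dividing cells. Type I interferons are known to slow the division of many cell types.

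The IFN-beta libraries held 18901845 and 20714161 gene counts and the untreated libraries 18528685 and 24817342. Counts per member and library ran from 73 to 13605. All 16 interferon-stimulated check genes rose in the libraries labelled IFN-beta. Isg15, Ifit1, Mx1 and Irf7 each had at least 1728 counts in each IFN-beta library and at most 30 in each untreated one. The 12 fibroblast markers were all tested, with summed levels of 9957 and 10095 counts per 1000000 (CPM) after IFN-beta and 9429.9 and 9144 CPM untreated. Of the markers of other cells, 6 of 10 leukocyte, 7 of 8 epithelial, 5 of 8 endothelial and 5 of 6 pluripotency genes stayed under 20 counts in each library, and the T cell gene Cd3e had 0. Their sums after IFN-beta and untreated were 16.7 to 21.9 against 18.4 to 24.1 CPM for leukocytes, 44.6 to 50.1 against 50.1 to 66.6 CPM for epithelium, 16.1 to 22.4 against 12.8 to 18.6 CPM for endothelium, and 0.841 to 1.91 against 1.37 to 2.70 CPM for pluripotency. The endothelial gene Cdh5 was the 1 marker that rose, with 24 and 19 counts after IFN-beta and 2 and 6 in untreated cells. The part of these cells in the results was not tested. In bulk RNA, fewer cells in S phase and less RNA per S-phase cell cannot be told apart.

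After 6 h of IFN-beta the replication genes had changed little. Of the 54, 2 rose and 0 fell (edgeR's quasi-likelihood test, p below 0.05 after Benjamini-Hochberg adjustment over all 12128 tested genes). The 2 that rose, both at the helicase, were Mcm10 and Mcm6. They make up 3.70% of the members, against 4.73% of all tested genes that rose, and the 0 that fell stand against 0.495%. The share that rose is therefore near that of all genes. By an unadjusted p under 0.05, 2 members were higher, against 9.6% of all tested genes, and 8 were lower, which is 14.8% of the members against 8.56% of all tested genes. With DESeq2, 2 members were higher (5.13% of all tested genes were) and 1 lower, Pole2 (0.849% of all tested genes were).

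The changes were small in both directions. The log2 fold changes of the members ran from -0.68 for Pole2 to 0.72 for Mcm10, with 23 above 0, 31 below 0 and a median of -0.09, while the median over all tested genes was -0.02. For 52 of the 54 members the 95% interval of the fold change lay within 2-fold in either direction, and for 35 it lay within 1.5-fold. These shares were not taken over all tested genes, and each member had at least 73 counts in every library. The exceptions at 2-fold were Mcm10, with an interval of 0.42 to 1.02 on the log2 scale, and Pole2, with -1.10 to -0.25. Among all genes, 434 of those that rose did so by at least 2-fold. Both IFN-beta libraries lay above both untreated ones for 14 members (25.9%, against 23.9% of all tested genes) and below them for 20 (37.0%, against 26.8%).

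**Figure D1:**
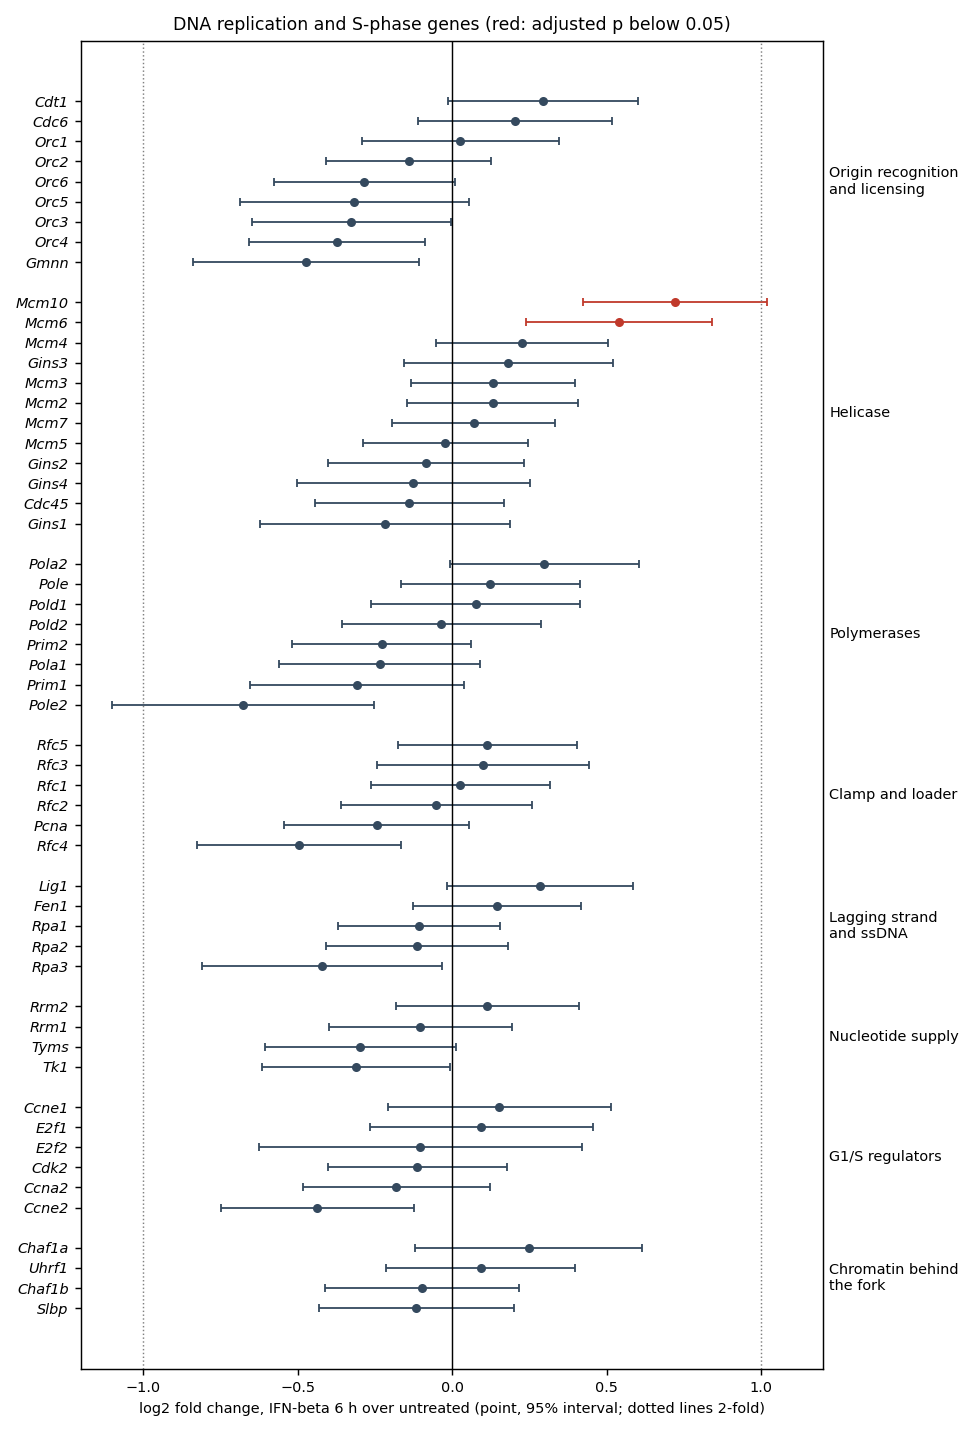
Log2 fold change of each of the 54 genes, IFN-beta 6 h over untreated, on the horizontal axis, by role group from top to bottom; points are edgeR estimates, bars 95% intervals, red marks adjusted p below 0.05, and dotted lines mark 2-fold in either direction. Mcm10 and Mcm6 are the 2 red points, at 0.72 and 0.54, and Pole2 at -0.68 is the lowest.

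How many members pass as lower, and how many of all tested genes do, depends on the settings, among them the use of untreated replicate 2. Without that library 4 members were called higher and 14 lower (7.41% and 25.9% of the members, against 15.3% and 14.0% of all tested genes), with the spread taken from the IFN-beta pair alone. Without untreated replicate 1 the counts were 2 and 2 (6.91% and 1.82% of all tested genes) and the median of the members was 0.01, with 29 above 0 and 25 below. With total library size scaling, which shifts the median of all tested genes to -0.16, 1 member was higher and 4 were lower (3.94% and 2.89% of all tested genes), with 11 above 0 and 43 below. Without IFN-beta replicate 1 the split was 27 above and 27 below. The 4 called lower with total library size scaling were Ccne2, Orc4, Pole2 and Rfc4. The RNAs Rn45s, Lars2 and Mir6236 together made up 14.5% and 13.0% of the gene counts after IFN-beta and 5.94% and 7.52% in untreated cells. With them removed, the median of the members was -0.08 and the split 23 above and 31 below 0.

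The remaining alternatives gave the following calls, with the share of all tested genes in brackets. With DESeq2 size factors in edgeR 1 member was higher (4.81%) and 0 were lower (0.445%). With upper quartile scaling 1 was higher (4.29%) and 0 were lower (1.06%). With Rn45s, Lars2 and Mir6236 removed, 1 was higher (4.83%) and 0 were lower (0.445%). Without a count filter 2 were higher (5.16%) and Gmnn, Pole2 and Rfc4 were lower (2.28%). With the filter at a CPM of 1, 1 was higher (4.72%) and 0 were lower (0.49%), and with limma-voom 2 were higher (4.82%) and 0 lower (0.453%). With the replicate block 1 was higher (5.71%) and Pole2 was lower (1.28%). Without IFN-beta replicate 1, 1 was higher (3.75%) and 0 were lower (0.192%), and without IFN-beta replicate 2, 1 was higher (4.27%) and Pole2 was lower (0.445%). The member called higher in every one of these settings was Mcm10.

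Among the genes of the helicase, the ring Mcm2-7 and the factors that start it, 7 of 12 had both IFN-beta libraries above both untreated ones and 0 had both below, where over all tested genes the shares were 23.9% and 26.8%. Their median log2 fold change was 0.10. It was -0.04 with total library size scaling, and Mcm2, Mcm3 and Mcm7 then turned below 0 (Mcm7 with upper quartile scaling too), while the group's median stood 0.12 above that of all tested genes in both scalings. Summed over the 12 genes, the level was 1573 and 1569.7 CPM after IFN-beta and 1403 and 1359.7 CPM in untreated cells. In this sum Mcm6 alone averaged 340 CPM after IFN-beta and 234 CPM untreated, and 5 of the 12 genes had log2 values below 0. Mcm10, which binds the helicase and DNA polymerase alpha and helps the rings to fire, had 76.2 and 77.0 CPM after IFN-beta and 43.3 and 49.6 CPM in untreated cells. These were 1360 and 1528 counts against 833 and 1309. Both treated libraries lay above both untreated ones, and the difference between the groups was wider than the gap inside either pair. The fold was 1.65, a log2 fold change of 0.72 ± 0.13 (SE) with an edgeR adjusted p of 0.0097. Mcm10 was called in all 13 alternatives, with adjusted p-values from 1.0e-07 to 0.0483.

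Mcm6, a subunit of the ring itself, had 348 and 332 CPM after IFN-beta and 256 and 212 CPM in untreated cells. The treated libraries again stood above both untreated ones, which differed more from each other than the treated pair did. Its log2 fold change was 0.54 ± 0.13 (SE, edgeR adjusted p = 0.0498), and this call just passed the threshold. It was lost in 8 of the 13 alternatives, among them every change of scaling, the replicate block (0.0632) and either IFN-beta library left out (0.388 and 0.166). Mcm4 had 259 and 231 CPM after IFN-beta and 203 and 215 CPM untreated (log2 0.23, and 0.14 without IFN-beta replicate 1). The other ring subunits had log2 values of 0.13 (Mcm2), 0.13 (Mcm3), 0.07 (Mcm7) and -0.02 (Mcm5). Neither Mcm4 nor any of these passed. Cdc45 (-0.14) and the GINS genes Gins1 (-0.22), Gins2 (-0.09), Gins3 (0.18) and Gins4 (-0.13), which complete the running helicase, did not pass either. Within each library, Mcm6 counts were 0.364 and 0.354 of the summed Mcm2, Mcm3, Mcm4, Mcm5 and Mcm7 counts after IFN-beta, and 0.297 and 0.237 in untreated cells. This ratio does not depend on how libraries are scaled.

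The promoters of Mcm6 and Mcm10 are shown because these were the 2 members that rose. Promoter sequences were from RefSeq (build GRCm38.p6, later than the mm9 build of the counts) and were found for 44 of the 54 members, by symbol. Each stretch holds the 250 bases before the annotated start, 5′ to 3′ along the gene, with E2F octamers and CCAAT boxes in capitals on either strand.
Mcm6 (chr1:128359706-128359955, - strand): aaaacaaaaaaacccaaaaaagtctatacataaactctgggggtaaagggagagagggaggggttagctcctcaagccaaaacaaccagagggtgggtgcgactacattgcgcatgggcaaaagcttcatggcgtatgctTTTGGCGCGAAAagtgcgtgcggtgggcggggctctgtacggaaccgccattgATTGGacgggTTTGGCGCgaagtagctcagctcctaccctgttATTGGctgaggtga
Mcm10 (chr2:5012792-5013041, - strand): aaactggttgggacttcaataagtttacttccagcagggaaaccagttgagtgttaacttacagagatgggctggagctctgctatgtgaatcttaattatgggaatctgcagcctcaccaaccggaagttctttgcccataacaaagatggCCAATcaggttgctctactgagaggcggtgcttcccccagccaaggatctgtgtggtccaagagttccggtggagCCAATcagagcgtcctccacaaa
The Mcm6 stretch held 3 E2F octamers, 2 of which overlap in one run, and 2 CCAAT boxes. The Mcm10 stretch held 0 E2F octamers and 2 CCAAT boxes. The E2F letters searched were TTTCGCGC, TTTGGCGC, TTTCCCGC and TTTGCCGC, on both strands and in the window from 250 bases before to 50 bases after the start. In that window 17 of 44 members (38.6%) held at least 1 of them, against 2.60% of the 27025 genes in the table. Those 27025 genes were not limited to the 12128 tested here, while all members were tested, so these motif shares compare unlike sets. CCAAT was present in 63.6% of the members and 41.1% of all genes. The cell cycle homology letters TTTGAA or TTCGAA were present in 18.2% of the members and 21.7% of all genes. The core of the interferon-stimulated response element (GAAA, any 2 bases, GAAA) was present in 2 members, Orc2 and Pold2 (4.55%, against 3.99% of all genes), and neither passed the test (log2 values -0.14 and -0.04).

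Members with an E2F octamer lay on both sides of the untreated level. Their log2 fold changes ran from -0.68 to 0.54, with 11 above 0 and 6 below 0 and a median of 0.08, and those of the 27 members without one ran from -0.50 to 0.72 with a median of -0.11. This is a description, with no test, and a match of letters is not a bound site. The windows below show the octamer in capitals with 8 bases on each side, for members with values above 0 (Cdt1, Cdc6, Lig1) and below 0 (Orc3, Pola1, Pole2).
Cdt1 (chr8:122568039-122568062, + strand): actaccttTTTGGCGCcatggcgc
Cdc6 (chr11:98908005-98908028, + strand): ggtggagaGCGGGAAAtcgcctgg
Lig1 (chr7:13278844-13278867, + strand): caaagtgcGCGCGAAAtctgtgtg
Orc3 (chr4:34614968-34614991, - strand): tgcctcccTTTCCCGCacgccccg
Pola1 (chrX:93632278-93632301, - strand): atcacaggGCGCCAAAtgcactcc
Pole2 (chr12:69228165-69228188, - strand): cggcggtgGCGCCAAAtcgcgaac
Cdt1, Pola1 and Pole2 share the octamer TTTGGCGC, read along the gene in Cdt1 and against it in the other two, and their log2 values were 0.29, -0.24 and -0.68.

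In the licensing group none of the 9 genes passed the test, and most subunits of the recognition complex had values below 0 while the loaders Cdt1 and Cdc6 had values above 0. Orc4, a subunit of the origin recognition complex, had 129.5 and 151 CPM after IFN-beta and 184 and 179 CPM in untreated cells, with no overlap (log2 -0.37 ± 0.13 SE, edgeR adjusted p = 0.154). Orc3 had 83.5 and 88.8 CPM after IFN-beta and 120.6 and 95.6 CPM untreated (-0.33). It was at -0.13 without untreated replicate 1, and at -0.49 and called lower without untreated replicate 2. The remaining subunits were at -0.32 (Orc5), -0.28 (Orc6), -0.14 (Orc2) and 0.03 (Orc1). Unlike Orc3, Orc5 was higher in untreated replicate 2 than in untreated replicate 1 (log2 difference 0.28). Over the 13 alternatives Orc5 ran from -0.50 to -0.15. For Orc2 to Orc6 both treated libraries lay below both untreated ones, and for Orc1 the groups overlapped. Over the 9 licensing genes, 6 lay below and 2 above without overlap, where 26.8% and 23.9% of all tested genes did.

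For the loaders, Cdt1 had 47.8 and 43.8 CPM after IFN-beta and 35.7 and 39.1 CPM in untreated cells (0.29 ± 0.14 SE, edgeR adjusted p = 0.299). Cdc6, the ATPase that works with it, had 45.4 and 42.5 CPM against 35.6 and 40.7 CPM (0.20, and 0.13 without untreated replicate 1). Gmnn, whose protein inhibits Cdt1, had 38.4 and 47.2 CPM after IFN-beta and 66.5 and 52.5 CPM in untreated cells (-0.47 ± 0.16 SE, edgeR adjusted p = 0.159, and -0.27 without untreated replicate 1). In all 3 genes the treated libraries did not overlap the untreated ones, where 23.9% (above) and 26.8% (below) of all tested genes did not. Within a library, Cdt1 counts were 1.24 and 0.929 times the Gmnn counts after IFN-beta, and 0.537 and 0.744 times in untreated cells. Cdt1 and Gmnn were on the same side of 0 as here in all alternatives. Gmnn passed as lower in 2 of the 13 (no count filter, and untreated replicate 2 left out), and Cdt1 passed as higher in 1 (untreated replicate 2 left out).

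**Figure D2:**
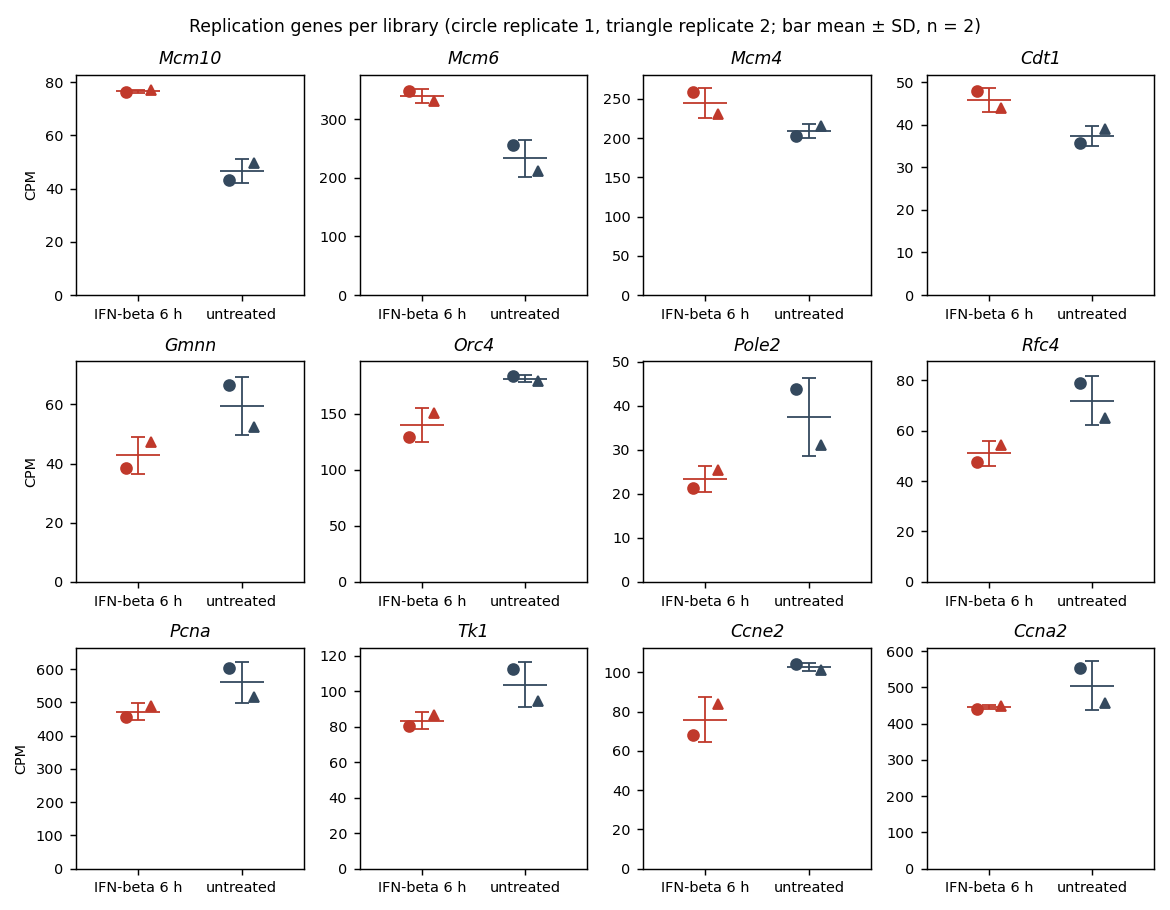
CPM of 12 of the genes in each library, on a linear axis from 0; circles are replicate 1, triangles replicate 2, and bars the mean ± SD (n = 2), with IFN-beta 6 h left of untreated. Mcm10 at 76.2 and 77.0 CPM and Mcm6 at 348 and 332 CPM stand above untreated cells, while in Pole2, Gmnn and Pcna untreated replicate 1 is the highest library.

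No polymerase gene passed the test. Pole2, the second subunit of the leading-strand polymerase epsilon, had the lowest value of all members, with 21.2 and 25.5 CPM after IFN-beta and 43.8 and 31.2 CPM in untreated cells. Both treated libraries lay below both untreated ones, but the untreated pair differed widely. The log2 fold change was -0.68 ± 0.19 (SE), a fold of 0.626, with an edgeR adjusted p of 0.0802. It was called lower in 6 of the 13 alternatives, including DESeq2 (0.0381), the replicate block (0.0270) and total library size (0.0402). Leaving out untreated replicate 1 moved it to -0.39. Pole, the catalytic subunit of the same enzyme, was at 0.12. The Pole counts were 4.19 and 3.14 times the Pole2 counts after IFN-beta and 1.70 and 2.59 times in untreated cells, with no overlap.

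The primase and polymerase alpha genes, which lay down the first primer, were split. Pola2 had 48.1 and 46.8 CPM after IFN-beta and 40.9 and 36.3 CPM in untreated cells (0.30, edgeR adjusted p = 0.285). Prim1 had 88.2 and 95.1 CPM after IFN-beta and 129.8 and 97.2 CPM in untreated cells (-0.31, edgeR adjusted p = 0.331). Pola1 (-0.24) and Prim2 (-0.23) also lay below in both treated libraries. Without untreated replicate 1 the values were -0.061 for Prim1, -0.015 for Pola1 and -0.13 for Prim2, and without untreated replicate 2 Prim1 (-0.50) and Pola1 (-0.41) were called lower. The polymerase delta genes Pold1 (0.08) and Pold2 (-0.04) overlapped between the groups.

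Of the sliding clamp Pcna and the 5 subunits of its loader, none passed. Rfc4 was furthest from 0, with 47.4 and 54.5 CPM after IFN-beta and 78.7 and 65.1 CPM in untreated cells (-0.50 ± 0.15 SE, edgeR adjusted p = 0.101). The groups did not overlap, and Rfc4 passed as lower in 3 of the 13 alternatives, with -0.33 when untreated replicate 1 was left out. Pcna had 455 and 490.1 CPM after IFN-beta and 604 and 516 CPM in untreated cells (-0.25, edgeR adjusted p = 0.375). It was at -0.10 without untreated replicate 1, and at -0.35 and called lower without untreated replicate 2. Rfc5 averaged 56.2 ± 1.04 CPM after IFN-beta and 52.0 ± 2.87 CPM in untreated cells (SD, n = 2 each), with no overlap and a log2 value of 0.11 (-0.030 with total library size). Rfc1 (0.03), Rfc2 (-0.05) and Rfc3 (0.10) overlapped between the groups.

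Among the genes that finish the lagging strand and cover single-stranded DNA, 2 of 5 lay above and 3 below the untreated libraries without overlap, where 23.9% and 26.8% of all tested genes did, and none passed. Lig1, the ligase that joins Okazaki fragments, had 50.3 and 46.0 CPM after IFN-beta and 38.4 and 40.6 CPM in untreated cells (0.29, edgeR adjusted p = 0.301). Fen1, the flap nuclease that trims them, had 87.0 and 87.5 CPM against 79.3 and 78.6 CPM (0.14). Rpa3, the smallest subunit of the single-strand binding protein, had 33.2 and 44.7 CPM after IFN-beta and 57.3 and 47.2 CPM in untreated cells (-0.42, edgeR adjusted p = 0.238). It was at -0.25 without untreated replicate 1 and at -0.22 without IFN-beta replicate 1, and it was called lower without untreated replicate 2 (-0.55). Rpa1 and Rpa2 were at -0.11 each.

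The nucleotide supply genes gave no call. Tk1, thymidine kinase, had 80.2 and 86.7 CPM after IFN-beta and 112.7 and 94.8 CPM in untreated cells (-0.31 ± 0.14 SE, edgeR adjusted p = 0.263). Tyms, which makes thymidylate, had 122 and 134 CPM against 173 and 142 CPM (-0.30, edgeR adjusted p = 0.292). In both genes the groups did not overlap. Without untreated replicate 1 Tk1 was at -0.16 and Tyms at -0.12, and without untreated replicate 2 both were at -0.43. Ribonucleotide reductase, which makes the deoxynucleotides, overlapped between the groups in both subunits, with Rrm2 at 182 and 161 CPM after IFN-beta and 147 and 169.9 CPM untreated (0.11, and 0.024 without IFN-beta replicate 1), and Rrm1 at -0.10.

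Of the G1/S regulators, Ccne2 stood lowest. It encodes a cyclin E and had 67.9 and 83.8 CPM after IFN-beta and 104 and 101 CPM in untreated cells, with no overlap (-0.44 ± 0.14 SE, edgeR adjusted p = 0.127). It passed as lower in 3 of the 13 alternatives, and was at -0.29 without IFN-beta replicate 1. Its sister gene Ccne1 had 30.3 and 29.2 CPM after IFN-beta and 23.5 and 30.0 CPM in untreated cells (0.15, and 0.014 without untreated replicate 1), and the groups overlapped. The Ccne1 counts were 0.447 and 0.349 times the Ccne2 counts after IFN-beta and 0.225 and 0.296 times in untreated cells. Ccna2, the S-phase cyclin A, had 441 and 449 CPM after IFN-beta and 552 and 458 CPM in untreated cells (-0.18, edgeR adjusted p = 0.521, and -0.016 without untreated replicate 1). E2f1, a factor that drives these genes, had 16.3 and 17.5 CPM against 15.3 and 16.3 CPM (0.09), and its value was -0.05 with total library size scaling. E2f2 was at -0.10 and Cdk2 at -0.11.

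Behind the fork, Chaf1a, a subunit of the factor that places new histones on copied DNA, had 53.5 and 52.1 CPM after IFN-beta and 37.5 and 51.3 CPM in untreated cells (0.25, edgeR adjusted p = 0.465). Untreated replicate 1 alone stood low there. Chaf1a was at 0.066 without it, and at 0.49 and called higher without untreated replicate 2. Chaf1b, its partner, was at 41.4 and 47.0 CPM against 50.0 and 44.8 CPM (-0.10). Slbp, which binds the stem-loop of histone mRNAs, had 128 and 114 CPM after IFN-beta and 145 and 118 CPM in untreated cells (-0.12). Uhrf1, which helps to carry DNA methylation over to the new strand, was at 0.09.

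**Figure D3:**
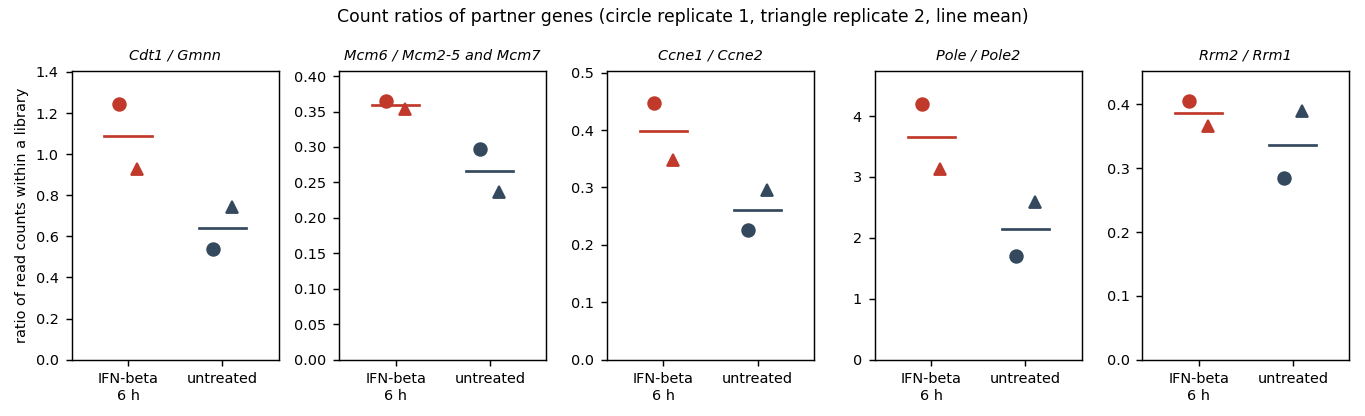
Ratios of read counts between partner genes within each library, on linear axes from 0; circles are replicate 1, triangles replicate 2 and lines the means of 2 libraries, with IFN-beta 6 h left of untreated. The Cdt1 to Gmnn ratio was 1.24 and 0.929 after IFN-beta and 0.537 and 0.744 untreated, and the Rrm2 to Rrm1 ratio is the 1 of 5 whose groups overlap.

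The 5 count ratios were chosen after values were seen. Of these, 4 did not overlap between groups: Cdt1 to Gmnn, Mcm6 to the other ring subunits, Ccne1 to Ccne2, and Pole to Pole2. Their group means differed by factors of 1.70, 1.35, 1.52 and 1.71. For Cdt1 to Gmnn the lack of overlap follows from the single genes, as Cdt1 lay above and Gmnn below the untreated libraries. The Rrm2 to Rrm1 ratio was 0.406 and 0.367 after IFN-beta and 0.284 and 0.389 untreated. With 2 libraries against 2, a two-sided exact permutation test cannot give a p below 0.333, so no ratio was tested.

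The untreated libraries differed from each other more than the treated ones did. Over the 54 members the median size of the log2 difference between replicates was 0.20 in untreated cells and 0.10 after IFN-beta, against 0.21 and 0.13 over all tested genes. The untreated differences ran from -0.48 (Pole2, lower in replicate 2) to 0.45 (Chaf1a, higher in replicate 2), with 22 members higher and 32 lower in replicate 2. The IFN-beta differences ran from -0.18 (Rrm2) to 0.43 (Rpa3). Summed over all members, the level was 5949.6 and 6095 CPM after IFN-beta and 6569 and 6033 CPM in untreated cells. Untreated replicate 1 alone stood high, and untreated replicate 2 lay between the treated libraries. Across the 54 genes the differences of the 2 pairs had a Pearson correlation of -0.29, against -0.09 over all tested genes, as a description over genes that share the same 4 libraries.

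**Figure D4:**
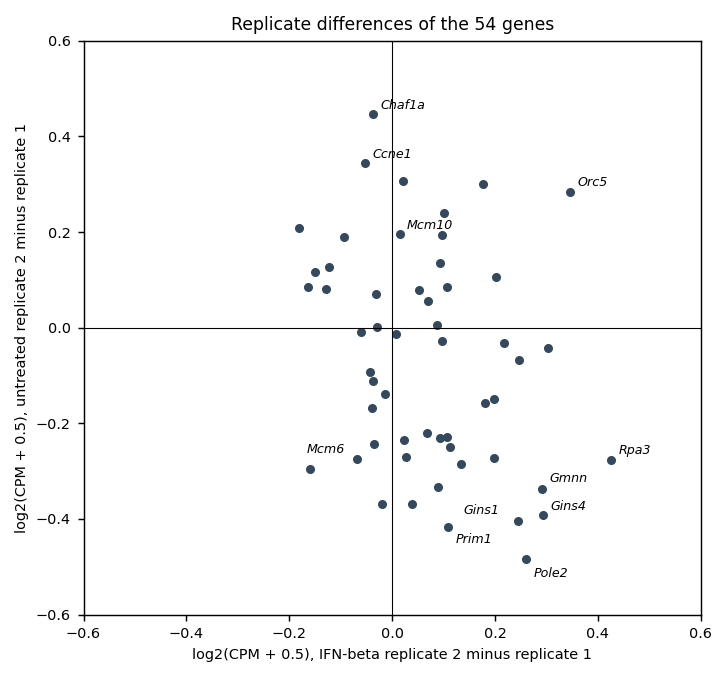
Difference between replicate 2 and replicate 1 for each of the 54 genes, as log2(CPM + 0.5), in IFN-beta libraries (horizontal) and untreated libraries (vertical). The points spread from -0.48 to 0.45 on the vertical axis and from -0.18 to 0.43 on the horizontal one.

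Of 92 other genes of the pathway 3 rose and 0 fell, against 4.73% and 0.495% of all tested genes. Samhd1, the enzyme that breaks down deoxynucleotides and a known antiviral factor, rose, with 186 and 171 CPM after IFN-beta and 50.7 and 45.9 CPM in untreated cells (log2 1.89 ± 0.13 SE, edgeR adjusted p = 6.4e-06). Of 30 other G1/S genes 2 rose. Ccnd3, a D-type cyclin that acts before cyclin E, had 67.4 and 62.0 CPM after IFN-beta and 42.2 and 42.1 CPM in untreated cells (0.62, edgeR adjusted p = 0.0211). Myc, a transcription factor that drives growth, had 72.7 and 62.8 CPM against 33.4 and 44.3 CPM (0.80, edgeR adjusted p = 0.0185). The Ccnd3 call was lost without either IFN-beta library (0.306 and 0.0760) and with total library size (0.0612), and the Myc call without IFN-beta replicate 1 (0.0828) and with total library size (0.0558).

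Of 32 other fork genes none passed, with Mcm8 (-0.47, edgeR adjusted p = 0.130) and Dscc1 (-0.51, 0.175) nearest. An unadjusted p under 0.05 was found for 5 of the 32, against 2202 of all 12128 tested genes. Of 11 other chromatin genes none passed, with Hat1 at -0.41 (edgeR adjusted p = 0.122) and Nasp at -0.37 (0.199), and 2 had an unadjusted p under 0.05. The medians of the other lists were 0.00 for fork genes, -0.07 for the 19 nucleotide genes, 0.07 for G1/S genes and -0.19 for chromatin genes.

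For the phases that follow S phase, of 30 G2/M genes 1 rose and 0 fell (4.73% and 0.495% of all tested genes). Of the 30, 9 were above 0 and 21 below 0, with a median of -0.10, against -0.09 for the 54 replication genes. Without overlap, 5 lay above and 13 below the untreated libraries, where 23.9% and 26.8% of all tested genes did. An edgeR unadjusted p under 0.05 was found for 8 of the 30, against 2202 of all 12128 tested genes. The gene that rose was Cenpe, a kinetochore motor, with 476 and 434 CPM after IFN-beta and 292 and 264 CPM in untreated cells (0.71, edgeR adjusted p = 0.0078, and 0.105 without IFN-beta replicate 1). Summed G2/M levels were 4250.1 and 4299 CPM after IFN-beta and 4919 and 4299 CPM in untreated cells, so untreated replicate 1 was the high library there too. The difference between the lists was not tested.

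**Figure D5:**
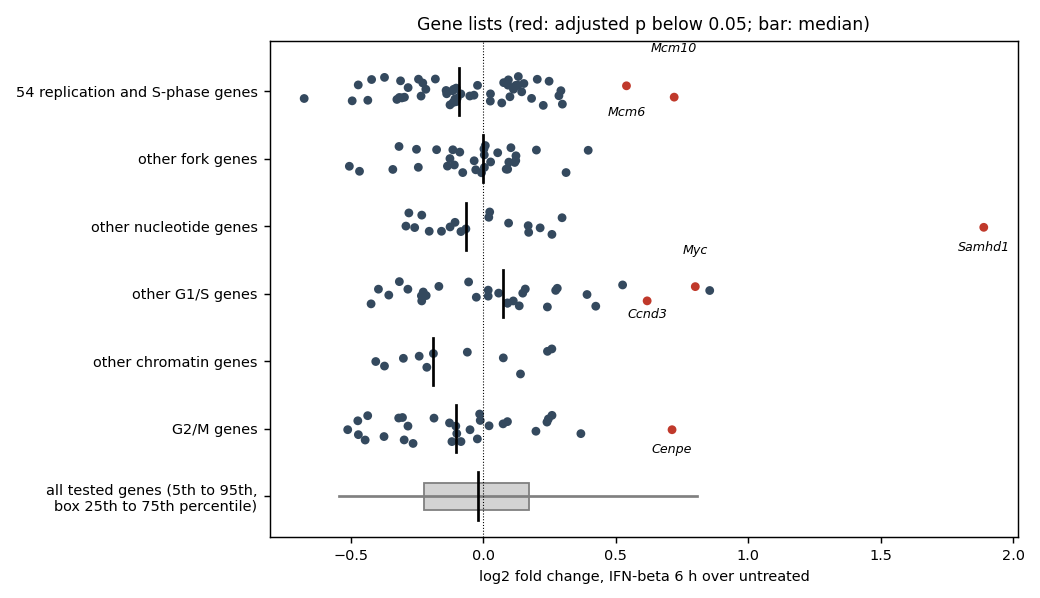
Log2 fold change, IFN-beta 6 h over untreated, of every tested gene in 6 lists, with black bars at the medians and red points for adjusted p below 0.05; the bottom row gives percentiles of all tested genes. Samhd1 at 1.89 is the point furthest from 0, and the medians of the 54 replication genes and the G2/M genes lie at -0.09 and -0.10.

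Reads of overlapping genes may limit some of these values, but no effect on any value was tested. By whole RefSeq gene spans on either strand, 25 of the 54 members overlap another annotated gene, a share not taken over all genes. Among them are Pole2 with Klhdc1, Rfc4 with Eif4a2 and Ccne2 with Ints8, while Mcm6 and Mcm10 overlap none. Records set aside as ambiguous were 0.471% and 0.466% (IFN-beta) and 0.535% and 0.526% (untreated) of all records. Pcna and Tyms have named pseudogene copies, so their counts depend on how reads shared with these were treated.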

How the data were processed

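The authors deposited raw read counts per gene symbol, separately for each library. Per the labels' protocols, 1 ug of total RNA (Trizol) went into each TruSeq library. Build mm9, HTSeq 0.7.2 and TopHat2 2.0.13 are named in the submitters' processing notes. Annotation and strand setting are not given in the sources used here, so where genes overlap, the source of a read is uncertain. The 5 summary lines that name no gene were set aside before library sizes were taken. Of all records, 42.7% and 38.7% (IFN-beta) and 39.3% and 41.4% (untreated) were assigned to genes.

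Counts were tested over the whole table by the quasi-likelihood F test of edgeR 4.0.16 (R 4.3.3), after TMM scaling and edgeR's own filter (minimum count 10, minimum total 15), with treatment alone in the model. Calls were made at 0.05 after Benjamini-Hochberg adjustment. The standard error was approximated as the size of the log2 fold change divided by the square root of F, and the 95% interval from it and the test's degrees of freedom. CPM values were computed with TMM-adjusted library sizes. Replicate differences used log2 of CPM plus 0.5. Alternatives were other scalings, filters, DESeq2 1.42.0, limma-voom (limma 3.58.1), a replicate block and each library left out. The same edgeR steps were first tested on simulated counts.

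Members and gene lists were chosen with earlier results of these data known. Genes given library by library were those called, the 3 with the smallest p in each of the 8 role groups and 10 fixed ones. Outside the members, up to 4 called genes of a list, or else the 2 with the smallest p, were named. Cdkn1a was added as the largest value among the other G1/S genes. Promoters came from RefSeq (GRCm38.p6), 250 bases before to 50 after the start. Protein sequences were not used here.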

Additional observations from a re-analysis of the deposited data

How the results depend on the processing

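Mcm10 was called higher under all 13 alternatives, and it was the 1 member called higher with total library size, DESeq2 size factors within edgeR, upper quartile scaling, removal of Rn45s, Lars2 and Mir6236, the filter at a CPM of 1 and the replicate block (1 each, against 2). Members called lower numbered 4 with total library size, 3 without a count filter, 1 with DESeq2 and 1 with the replicate block, against 0. With 1 library left out, 1 to 4 members were called higher and 0 to 14 lower, and their median log2 fold change ran from -0.10 to 0.0087. These fits take the spread of the lone library from the other group. The median was -0.23 with total library size and -0.16 with upper quartile scaling. Over all tested genes 574 rose and 60 fell. The higher count was 863 without a count filter, and the lower count 350 with total library size, 128 with upper quartile scaling, 381 without a count filter, 103 with DESeq2 and 155 with the replicate block. With 1 library left out these counts ran from 470 to 1885 higher and from 24 to 1728 lower. Among all 54 members the sign turned for 12 with total library size, 3 with upper quartile scaling 10 without untreated replicate 1, 4 without untreated replicate 2 and 4 without IFN-beta replicate 1. Of the 27 given library by library, these were Rfc5 (-0.030), Rrm2 (-0.031) and E2f1 (-0.050) with total library size, and Chaf1b and Slbp without untreated replicate 1, which ran from -0.19 to 0.0060 and from -0.26 to 0.063 with 1 library left out. For the same 27 members, 314 of the alternative values kept direction and side of the threshold, 24 newly passed, 8 no longer passed and 5 turned. The cause of these differences was not tested. The labels do not say whether same-numbered replicates were paired. The correlation of their deviations over genes was -0.12, which cannot settle this. The replicate block added Pole2 and removed Mcm6 among the members.

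The median standard error over the members was 0.14 on the log2 scale.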
